A study of Mus musculus with 96 samples.

Results

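Nr4a1, Crem, Klf4, Pde4b and Gem, 5 genes that cells switch on when calcium or cyclic AMP (cAMP) rises, were followed through every treatment and time of an array study of a mouse macrophage-like cell line. Members were all probes whose platform annotation gives 1 of these 5 symbols. There were 7 such probes among 16281 on the array, which name 10698 genes: 1 each for Nr4a1, Crem and Klf4, and 2 each for Pde4b and Gem. The series compared RNA of treated RAW 264.7 cells, a macrophage-like mouse line, with RNA of untreated cells of the same time on 2-colour arrays, and addressed how cells respond when a second ligand is added to the first.

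Cells were given 1 of 3 ligands, or LPS together with either of the others. LPS, the bacterial lipopolysaccharide sensed by Toll-like receptor 4, was used at 100 ng (no volume is given) with 100 pM LPS binding protein, for 30 min, 1 h, 2 h or 4 h. Interferon gamma (IFNG), a T cell cytokine that activates macrophages, was used at 5 nM for 1, 2 or 4 h. 2-methyl-thio-ATP (2MA), which mimics ATP at purinergic receptors of the cell surface, was used at 500 uM for 1, 2 or 4 h, although 1 sample's description gives the dose in nM. The joint treatments, LPS+IFNG and LPS+2MA, lasted 1, 2 or 4 h, and untreated cells were the common counterpart of all 16 groups. With 3 sets a group and 1 array for either dye orientation of a set, there were 96 arrays and 48 set values. The labels do not say whether sets were separate cultures, and the p-values reflect the spread of sets, possibly a technical one. Nor do they say whether treatments of 1 set and time shared untreated RNA.

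When an agonist opens calcium stores or drives adenylyl cyclase, calcium-dependent kinases and protein kinase A phosphorylate the transcription factor CREB, which binds the cAMP response element (CRE) in promoters and turns on immediate-early genes. Several of the products then act back on the signal. Nr4a1 (Nur77) is an orphan nuclear receptor, Crem encodes CREB-related activators and the repressor ICER, and Klf4 is a zinc finger factor linked to macrophage polarisation. Pde4b is the phosphodiesterase that degrades cAMP and is needed for full TNF output of macrophages, and Gem is a small GTPase that restrains voltage-gated calcium channels. Nr4a1 and Pde4b are also well known as LPS-induced genes of macrophages. Values below are log2 ratios of treated to untreated RNA, so they give responses and not levels, and levels of different genes cannot be compared.

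The promoters of 3 members differ in the short CRE motif, and 1 window of each is shown for that reason. RefSeq start-site windows on GRCm38.p6, from 250 bases before to 50 bases after the start, were used for 3 of the 5 members: 1 window for Nr4a1, 1 for Klf4 and 4 for Pde4b. Each sequence runs 5′ to 3′ on the gene's strand, and capitals mark the short CRE core TGACG, which reads CGTCA when it lies on the other strand. The windows are Nr4a1 at chr15:101266596-101266895 (plus strand), Klf4 at chr4:55532426-55532725 (minus strand) and the Pde4b window that holds the core, at chr4:102421305-102421604 (plus strand).
Nr4a1: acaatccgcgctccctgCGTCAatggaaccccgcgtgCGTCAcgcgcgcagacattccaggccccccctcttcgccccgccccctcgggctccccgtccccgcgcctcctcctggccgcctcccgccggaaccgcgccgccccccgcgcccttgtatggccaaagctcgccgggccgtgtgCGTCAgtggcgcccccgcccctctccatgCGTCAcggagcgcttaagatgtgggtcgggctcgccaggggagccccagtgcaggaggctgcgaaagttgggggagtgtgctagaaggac
Klf4: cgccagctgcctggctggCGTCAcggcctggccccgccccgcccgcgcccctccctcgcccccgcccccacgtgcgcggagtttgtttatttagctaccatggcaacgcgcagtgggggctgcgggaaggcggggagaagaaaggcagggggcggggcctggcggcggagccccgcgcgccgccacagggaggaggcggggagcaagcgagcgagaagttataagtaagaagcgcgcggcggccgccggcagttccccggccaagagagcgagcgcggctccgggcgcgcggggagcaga
Pde4b: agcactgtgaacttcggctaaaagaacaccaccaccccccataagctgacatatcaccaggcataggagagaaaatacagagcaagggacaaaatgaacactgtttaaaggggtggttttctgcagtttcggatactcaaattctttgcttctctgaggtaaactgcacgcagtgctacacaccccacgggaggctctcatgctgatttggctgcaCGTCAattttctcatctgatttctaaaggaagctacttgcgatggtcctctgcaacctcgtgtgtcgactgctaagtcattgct
The Nr4a1 window holds the core 4 times, at 233, 213, 69 and 40 bases before the start, whereas the Klf4 window holds it once, at 232 bases, and this Pde4b window once, at 34 bases. Searched on both strands, the core occurs in 20.8% of 32851 windows of this length, and 4 or more copies in 0.231% of them. The full CRE, TGACGTCA, which contains the core, occurs in 1.79% of windows and in none of the 6 member windows searched. No window of Gem or Crem was searched, so whether their promoters hold a full CRE is not known here. The NF-kB motif, found in 8.46% of windows, has a match 3 bases before the Nr4a1 start, 128 bases before the start of another Pde4b window, chr4:102569810-102570109, and 59 bases before that of the window chr4:102587308-102587607. The GAS motif, TTCNNNGAA, was also searched and occurs in 8.3% of windows. Among the 6 member windows it has 1 match, 150 bases before the start of the Pde4b window chr4:102569810-102570109. These letters are a description of the windows and no measure of binding.

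Between 13508 and 15004 probes had a value on an array, and a value of exactly 0 was read as no measurement. The number of arrays limits the precision. Direction was checked on textbook targets: the Tnf and Il1b probes were above 0 on every LPS array that measured them, and the Irf1 and Socs1 probes on every IFNG array. Probes of macrophage, T cell, B cell and fibroblast markers alike had a value on a median of 96 arrays, so these ratios do not check the cell type. Of the 7 member probes, 6 had a value on all 96 arrays and were tested. The second Gem probe, 18492, had a value on 32 arrays and was not tested. Its values ran from -0.44 to 1.29, and on 21 of 32 arrays it had the sign of the other Gem probe.

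The 6 tested probes all read lower when the treated RNA carried Cy5 than when it carried Cy3. The difference between orientations ran from -0.79 for Pde4b probe 1774 to -0.24 for Gem, with adjusted p between 4.85e-18 and 0.00242. A dye effect, in either direction, was called for 11181 of 13698 tested probes (81.6%). Each set value is the mean of both orientations, in which an effect of equal size in both arrays cancels. As deposited, before the sign was turned, a treatment effect has opposite signs on the 2 arrays of a set. Even so, the 2 arrays correlated above 0 over probes in 10 of 48 sets (up to 0.396). Those sets were of LPS at 30 min and 1 h, IFNG at 1 h, and 2MA at 1, 2 and 4 h. Small responses changed sign between orientations: Nr4a1 at 2 h of LPS averaged 0.60 with treated RNA in Cy3 and -0.06 with it in Cy5.

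**Figure D1:**
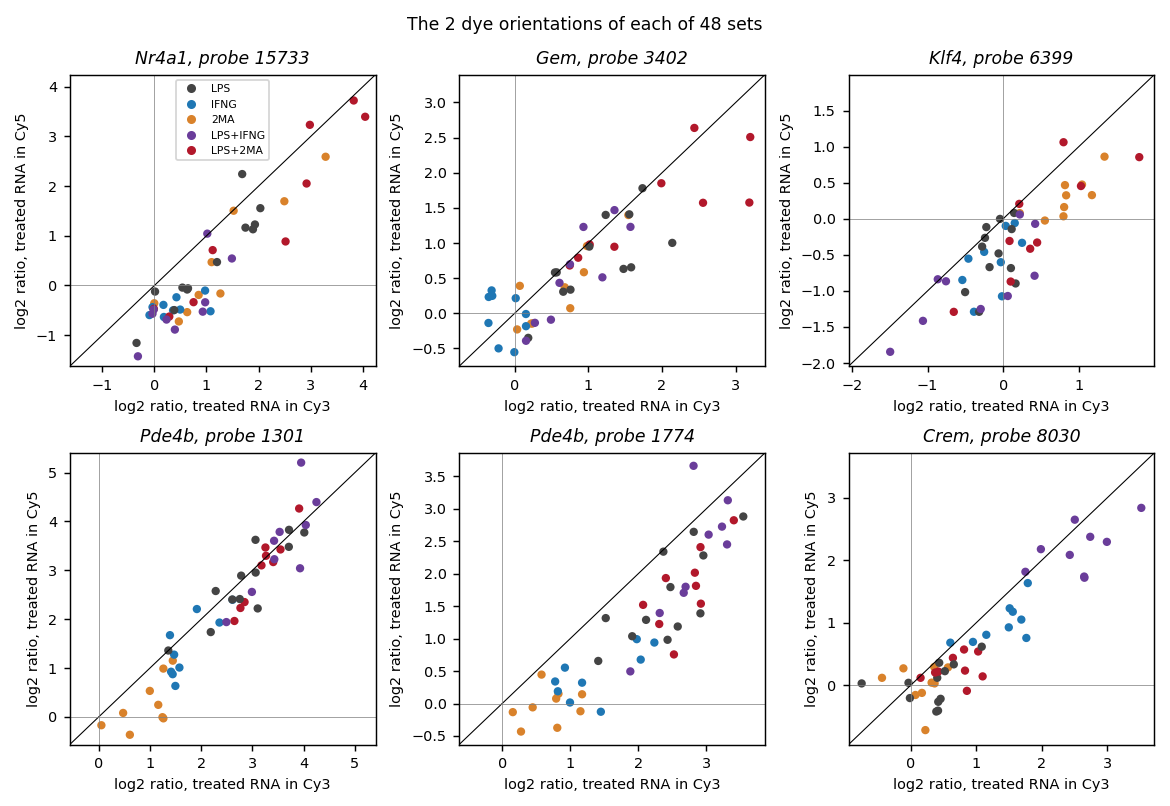
Each point is 1 of 48 sets, with the log2 treated-to-untreated ratio of the array that carried treated RNA in Cy3 on the x axis and in Cy5 on the y axis, coloured by treatment. The diagonal marks equal values, and most points of each probe lie below it, with a mean difference of -0.79 for Pde4b probe 1774 and -0.24 for Gem.

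Across the 16 responses of the 6 tested probes, 55 of 96 tests passed an adjusted p of 0.05, 50 upward and 5 downward. Pde4b rose in 14 groups by probe 1301 and in 12 by probe 1774, Gem in 9, Crem in 8 and Nr4a1 in 5. Klf4 rose in 2 groups and fell in 5. In bulk RNA, a change in the share of cells that express a gene and a change in RNA per cell cannot be told apart. Of the 6 probes, LPS changed 4 at 30 min, 4 at 1 h, 4 at 2 h and 3 at 4 h, beside 1.09%, 5.49%, 15.4% and 28% of all tested probes. IFNG changed 2, 3 and 4 of the 6 at 1, 2 and 4 h (1.07%, 3.45% and 12.1% of all). 2MA changed 3, 1 and 0 (1.69%, 1.4% and 1.96%). LPS+IFNG changed 4, 5 and 4 (7.26%, 20.1% and 33%), and LPS+2MA 5, 4 and 5 (5.27%, 17.2% and 32.4%). At 4 h of 2MA, where limma called none, 3 of the 6 had an unadjusted p under 0.05. Which probes passed differed between the ligands, as the set values show.

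**Figure D2:**
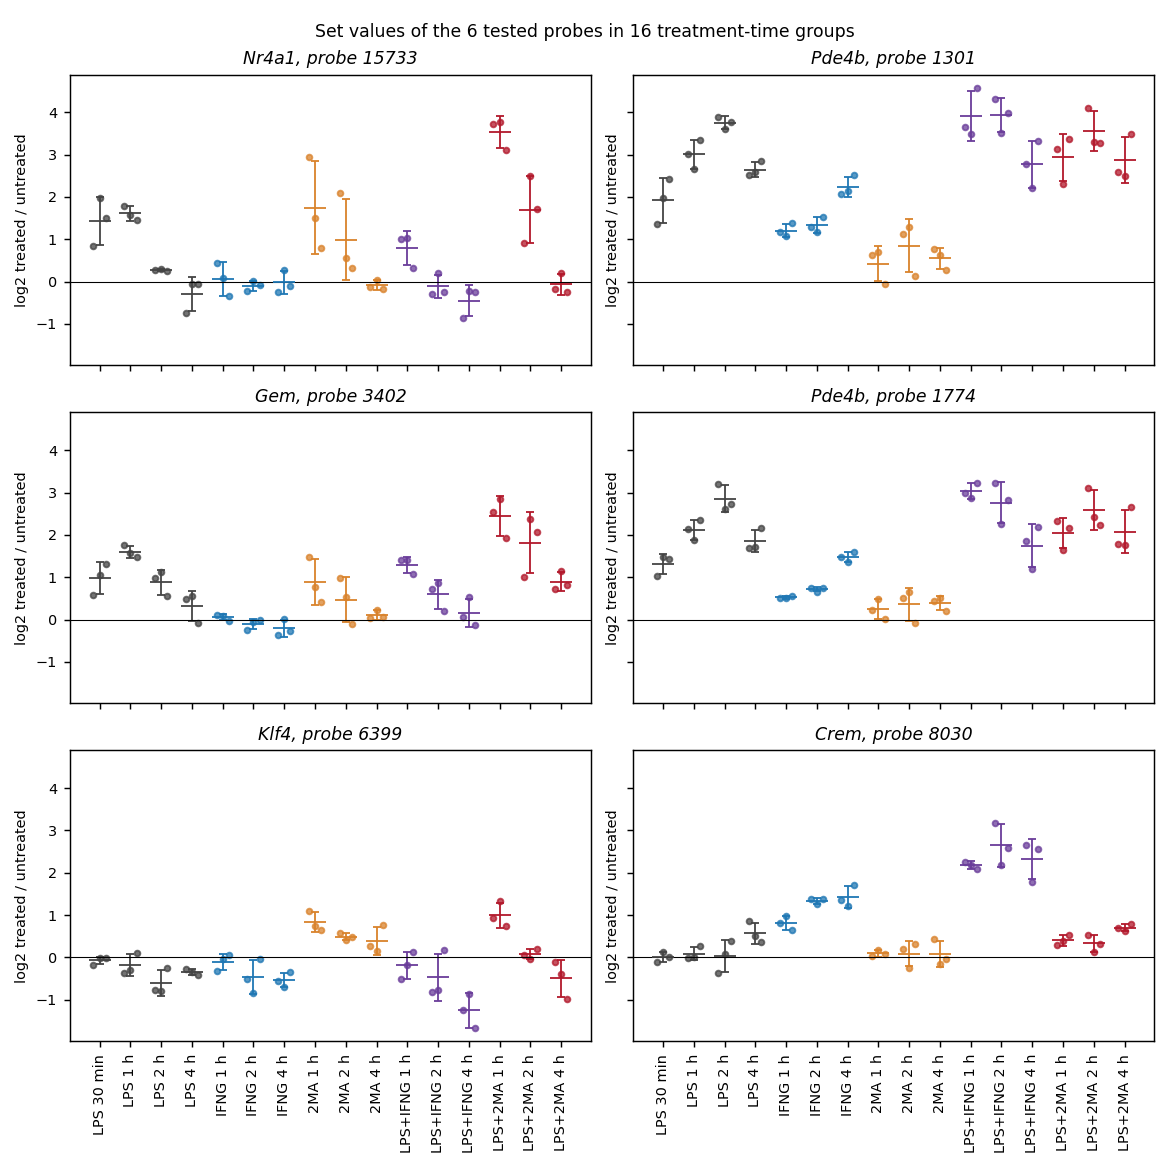
Log2 treated-to-untreated ratio (y axis) of each tested probe in the 16 treatment-time groups (x axis). Points are the 3 sets, horizontal bars the mean and whiskers the SD. Nr4a1 and Gem stand highest at 1 h of LPS+2MA (3.54 and 2.44), Crem in the LPS+IFNG groups (2.18 to 2.65), Pde4b in the groups given LPS for 1 h or longer (2.64 to 3.94 by probe 1301), and Klf4 lowest at 4 h of LPS+IFNG (-1.25).

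Nr4a1 rose early and briefly with LPS and with 2MA, rose most with both together, and was at or near 0 with IFNG. With LPS the 3 sets read 0.84, 1.96 and 1.51 at 30 min and 1.80, 1.58 and 1.46 at 1 h. At 2 h they read 0.27, 0.29 and 0.25, and at 4 h -0.75, -0.06 and -0.05. All 6 early sets thus lay above all 6 late ones. The rise was 1.44 ± 0.57 (SD, n = 3; 2.71-fold) at 30 min and 1.61 ± 0.17 (3.05-fold) at 1 h, with adjusted p of 0.000849 and 4.69e-05. The LPS times differed from each other (F = 11.5, adjusted p = 0.000272), a test passed by 4 of the 6 member probes and 16.2% of all. For Nr4a1 it was passed at F = 18.8 without set 1 and at F = 6.37 (adjusted p = 0.0284) without set 2.

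With 2MA alone, the Nr4a1 sets read 2.94, 1.51 and 0.78 at 1 h, 2.10, 0.55 and 0.33 at 2 h, and -0.13, 0.05 and -0.18 at 4 h. Set 1 was the highest at 1 h and at 2 h, and the 1 h and 2 h sets overlapped. Nr4a1 rose at 1 h (1.75 ± 1.10, adjusted p = 6.83e-05) and ranked 21 of 13698 probes. Without set 1 the 1 h mean was 1.15 (adjusted p = 0.012). At 2 h it stood at 0.99 ± 0.96 (adjusted p = 0.0512), and at 0.44 without set 1 (adjusted p = 1). The 2 h test passed with the set number as a block (0.00747), with a dye term over single arrays (0.00163) and with arrays centred on their median (0.0492). The 2MA times differed for Nr4a1 (F = 11.6, adjusted p = 0.0463), a test passed by 0.285% of all probes. That call was lost without set 1 (adjusted p = 1), set 2 (0.097) or set 3 (0.0758).

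With LPS+2MA, the Nr4a1 sets read 3.72, 3.78 and 3.11 at 1 h, above every set of every other group. They read 0.92, 2.49 and 1.70 at 2 h, and -0.17, 0.21 and -0.24 at 4 h, where they lay on both sides of 0. The rise was 3.54 ± 0.37 (11.6-fold, adjusted p = 3.77e-13) at 1 h and 1.70 ± 0.79 (3.25-fold, adjusted p = 5.52e-06) at 2 h. Against LPS alone at 1 h, LPS+2MA was higher by 1.93 (SE 0.38, adjusted p = 0.0133), in 3 of 3 sets. Of all probes, 0.117% passed that comparison, and of the members Nr4a1 and Klf4 did. No member passed it at 2 h or 4 h (0.0511% and 0.314% of all probes), where 3 and 1 of the 6 probes had an unadjusted p under 0.05 in limma. The call was lost without set 2 (adjusted p = 0.999) or set 3 (0.149), with differences of 1.79 and 2.06. At 2 h the difference of 1.43 did not pass (adjusted p = 0.213). It passed with sets paired (0.0331), in the fit of single arrays with a dye term (0.00622) and without set 1 (1.82, adjusted p = 0.00858). Against 2MA alone, LPS+2MA was higher by 1.79 at 1 h (SE 0.38, adjusted p = 0.00404), a call lost without set 2 (adjusted p = 0.249), without set 3 (0.219) or in a fit of these groups alone (0.136). At 2 h that difference was 0.71 (adjusted p = 0.454), and 1.65 (adjusted p = 0.00128) without set 1.

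IFNG left Nr4a1 between -0.10 and 0.06 on average at its 3 times. With LPS+IFNG, the sets read 1.02, 1.03 and 0.32 at 1 h, all below the 3 sets of LPS alone at that time. The mean of 0.79 ± 0.41 did not pass (adjusted p = 0.0719), but did in a fit of that group alone (0.00209), with the set number as a block (0.0175) and with a dye term over single arrays (0.00803). The difference from LPS alone, -0.82, did not pass (95% interval -1.6 to -0.049 of the fit, adjusted p = 1). In the order of means, the gap below LPS+2MA at 1 h and the gap between LPS+IFNG at 1 h and LPS at 2 h exceeded the larger SD of the neighbouring groups, and no other gap did. The LPS call at 30 min was lost without set 2 (adjusted p = 0.282) or set 3 (0.0679).

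Crem rose with IFNG at every time, and no 2MA test passed. With IFNG the sets read 0.82, 0.98 and 0.64 at 1 h, 1.37, 1.26 and 1.37 at 2 h, and 1.37, 1.21 and 1.71 at 4 h. Every one of these 9 values was above 0, and the 2 h and 4 h sets lay above the 1 h sets. Crem rose by 0.82 ± 0.17, 1.34 ± 0.06 and 1.43 ± 0.26 (1.76-, 2.52- and 2.70-fold), with adjusted p from 4.32e-10 to 0.000294. With LPS alone it averaged 0.01 ± 0.11, 0.09 ± 0.15 and 0.04 ± 0.38 at 30 min, 1 h and 2 h, and rose at 4 h by 0.57 ± 0.25 (sets 0.85, 0.50 and 0.37; adjusted p = 0.00177, and 0.0674 without set 1). With 2MA alone its mean lay between 0.08 and 0.10 at each time, and no test passed.

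With LPS and IFNG together, Crem stood higher than with either alone, but the difference from IFNG alone was not tested. The sets read 2.26, 2.19 and 2.08 at 1 h, 3.18, 2.19 and 2.58 at 2 h, and 2.65, 1.78 and 2.56 at 4 h. All 9 lay above all sets of LPS alone and of IFNG alone. The responses were 2.18 ± 0.09, 2.65 ± 0.50 and 2.33 ± 0.47, or 4.53-, 6.27- and 5.03-fold. Against LPS alone, LPS+IFNG was higher by 2.09, 2.61 and 1.76 (SE 0.20 each), with adjusted p of 1.5e-09, 3.64e-12 and 6.95e-08. Crem was the only member called at 1 h and 2 h, where 1.04% and 2.64% of all probes passed, and with Klf4 1 of 2 at 4 h, where 4.18% did. With LPS+2MA, the Crem test passed at 4 h (0.70 ± 0.08, adjusted p = 0.000133), above 2MA alone by 0.62 (adjusted p = 0.027, but 0.123 without set 2 and 0.302 without set 3). 2MA minus LPS at 4 h was -0.50 (adjusted p = 0.106, and 0.0368 with sets paired). The LPS+IFNG groups were set off from the IFNG groups by more than the larger SD, while the order among the 3 LPS+IFNG times was within it.

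Klf4 went in opposite directions with different ligands. 2MA raised it at 1 h, where the sets read 1.10, 0.75 and 0.64. They read 0.58, 0.42 and 0.48 at 2 h, and 0.26, 0.15 and 0.76 at 4 h. All 9 were above 0, but only the 1 h mean, 0.83 ± 0.24 (1.78-fold), passed (adjusted p = 0.00289, and 1 without set 1). The 2 h mean of 0.49 (adjusted p = 0.2) passed without set 3 (0.0386) and with the set number as a block (0.048). With LPS, the sets were -0.76, -0.80 and -0.25 at 2 h, and Klf4 fell by 0.61 ± 0.31 (adjusted p = 0.00783, but 0.188 without set 1 and 0.131 without set 2). At 30 min, 1 h and 4 h of LPS it averaged -0.07, -0.18 and -0.34, and none of these passed. IFNG gave sets of -0.55, -0.69 and -0.36 at 4 h, a fall of 0.53 ± 0.17 (adjusted p = 0.0257), a call lost without set 1 (0.238) or set 2 (0.196). The mean at 2 h was -0.46 ± 0.40 (adjusted p = 0.173). It passed without set 3 (-0.67, adjusted p = 0.0012) and in a fit of that group alone (0.0469).

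Under the joint treatments Klf4 rose early with LPS+2MA and fell late with either second ligand. With LPS+2MA the sets were 0.93, 1.33 and 0.74 at 1 h and 0.06, -0.03 and 0.21 at 2 h. At 4 h they were -0.11, -0.39 and -0.97, so that the 1 h sets lay above 0 and the 4 h sets below. It rose at 1 h by 1.00 ± 0.30 (2.00-fold, adjusted p = 2.85e-05) and fell at 4 h by 0.49 ± 0.44 (adjusted p = 0.0187, but 0.0625 without set 2, and 0.16 without set 3, where the mean was -0.25). Against LPS alone at 1 h, LPS+2MA was higher by 1.18 (SE 0.23, adjusted p = 0.0133), in 3 of 3 sets; the call was lost without set 1 (adjusted p = 1) or set 2 (0.999). Against 2MA alone at 4 h it was lower (-0.88, SE 0.23, adjusted p = 0.00525). Without set 3 that difference was -0.45 (adjusted p = 0.104). With LPS+IFNG at 4 h the sets were -1.24, -0.85 and -1.67, the lowest group of the 16, and Klf4 fell by 1.25 ± 0.41 (adjusted p = 4.96e-08). Its difference from LPS alone was -0.91 (SE 0.23, adjusted p = 0.0135, but 0.351 without set 1 and 0.0616 in a fit of the compared groups alone). At 2 h of LPS+IFNG it fell by 0.47 ± 0.56 (adjusted p = 0.0377), a call lost without set 1 (mean -0.30, adjusted p = 0.571) or set 2 (-0.32, 0.302). Without set 3 the mean was -0.79 (adjusted p = 3.42e-05). The gap above the LPS+IFNG group at 4 h was 1 of 3 in its order of means that exceeded the larger SD.

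2MA stood above LPS for Klf4, in 3 of 3 sets at each time. The difference 2MA minus LPS was 1.01, 1.10 and 0.73 at 1, 2 and 4 h (SE 0.23 each), with adjusted p of 0.0102, 0.00182 and 0.0274. At each time 3 of the 6 member probes passed, Klf4 upward and both Pde4b probes downward, beside 1.66%, 4.94% and 14.4% of all probes. Without set 1 the 3 adjusted p were 0.994, 0.169 and 0.152, without set 2 they were 0.137, 0.0607 and 0.0806, and without set 3 the one at 4 h was 0.0677. The Pde4b probes went the other way at every time, with differences from -2.90 to -2.09 for probe 1301 and from -2.49 to -1.47 for probe 1774.

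Pde4b rose in every group that held LPS, with its highest LPS mean at 2 h, and with IFNG, with its highest mean at 4 h. By probe 1301, the LPS sets read 1.36, 1.96 and 2.43 at 30 min, 3.01, 2.66 and 3.34 at 1 h, 3.89, 3.60 and 3.77 at 2 h, and 2.51, 2.58 and 2.84 at 4 h. All 3 sets at 2 h lay above those of the other times, and the sets at 30 min lay below the 1 h sets. The means were 1.92 ± 0.54, 3.00 ± 0.34, 3.75 ± 0.15 and 2.64 ± 0.17, the highest 13.5-fold. Probe 1774 gave the same sequence of times at lower values, 1.31 ± 0.24, 2.12 ± 0.24, 2.85 ± 0.32 and 1.85 ± 0.26. The LPS times differed by either probe (F = 11.3, adjusted p = 0.000307, and F = 13.3, adjusted p = 8.57e-05). Both calls were lost without set 1 (F = 3.90, adjusted p = 0.21, for probe 1301 and F = 5.01, adjusted p = 0.104, for probe 1774). Without set 3 the call for probe 1301 held at F = 18.9.

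With IFNG, Pde4b probe 1301 gave sets of 1.17, 1.07 and 1.37 at 1 h, 1.29, 1.16 and 1.53 at 2 h, and 2.06, 2.14 and 2.51 at 4 h. The 4 h sets stood above the earlier ones, which overlapped each other. It rose by 1.20 ± 0.16, 1.33 ± 0.19 and 2.24 ± 0.24 (2.30-, 2.51- and 4.72-fold), the 1 h call having an adjusted p of 0.00081, and 0.096 without set 1. Probe 1774 rose at 2 h and 4 h (0.72 ± 0.05 and 1.48 ± 0.12) but not by the test at 1 h (0.52 ± 0.03, adjusted p = 0.296). That test passed in a fit of the group alone (0.00305), and the mean of both probes passed at 0.86 (0.00954). The 2 h call of probe 1774 was lost without set 1 (0.186) or set 3 (0.0648). With 2MA alone, 1 of 6 tests passed: probe 1301 at 2 h, 0.85 ± 0.64 (sets 1.13, 1.30 and 0.12; adjusted p = 0.0451). It was lost without set 1 (adjusted p = 1) or set 2 (0.234) and with both probes averaged (0.164), and probe 1774 at that time stood at 0.36 ± 0.39 (adjusted p = 0.59).

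With a second ligand, no difference of Pde4b from LPS alone passed the test. With LPS+IFNG probe 1301 stood at 3.91 ± 0.59, 3.94 ± 0.41 and 2.77 ± 0.56 at 1, 2 and 4 h, and with LPS+2MA at 2.94 ± 0.56, 3.55 ± 0.46 and 2.86 ± 0.54. The difference LPS+2MA minus LPS lay between -0.20 and 0.22 for probe 1301, with 95% intervals of -0.72 to 0.58, -0.85 to 0.45 and -0.43 to 0.87 at the 3 times. The difference LPS+IFNG minus LPS was 0.90 at 1 h (adjusted p = 0.503) for probe 1301 and 0.91 (adjusted p = 0.0742) for probe 1774. The latter passed with sets paired (0.00974), in a fit of the compared groups alone (0.0115) and with a dye term over single arrays (0.0385). At 2 h and 4 h it lay between -0.11 and 0.19 over both probes. Both of these comparisons rest on the same LPS sets.

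The 2 Pde4b probes gave 1 pattern at different size. Over the 16 group means they correlated at 0.992, a description of arrays that both probes share, and probe 1301 lay above probe 1774 in 47 of 48 sets. The gap between group means ran from 0.17 at 4 h of 2MA to 1.18 at 2 h of LPS+IFNG. The probes are annotated to different Pde4b transcript records, and which of the gene's transcripts each detects was not tested.

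Gem rose with LPS and with LPS+2MA, where its highest means lay, and no IFNG test passed. With LPS its sets read 0.58, 1.05 and 1.32 at 30 min, 1.76, 1.57 and 1.48 at 1 h, 0.98, 1.12 and 0.55 at 2 h, and 0.48, 0.56 and -0.08 at 4 h. The 1 h sets lay above those of every other LPS time. It rose by 0.98 ± 0.38, 1.60 ± 0.14 and 0.88 ± 0.30 at the first 3 times (adjusted p = 0.00187, 8.84e-08 and 0.000922). The 30 min call was lost without set 2 (adjusted p = 0.122) or set 3 (0.112). The LPS times differed (F = 7.20, adjusted p = 0.00582), a call lost without set 2 (F = 5.31, adjusted p = 0.0534) or set 3 (5.12, 0.0568). 2MA alone gave 1.47, 0.76 and 0.41 at 1 h, a rise of 0.88 ± 0.54 (adjusted p = 0.0101, and 1 without set 1, with a mean of 0.59). At 2 h and 4 h of 2MA it stood at 0.47 ± 0.54 and 0.11 ± 0.11, neither past the test.

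With LPS+2MA, the Gem sets read 2.54, 2.85 and 1.92 at 1 h, 1.00, 2.38 and 2.06 at 2 h, and 0.71, 1.15 and 0.83 at 4 h. All 9 lay above 0, and all 1 h sets were above all 1 h sets of LPS or 2MA alone. The rises were 2.44 ± 0.47, 1.81 ± 0.72 and 0.90 ± 0.23 (5.42-, 3.52- and 1.86-fold), with adjusted p from 1.38e-12 to 0.000281. LPS+2MA stood above LPS alone by 0.83, 0.93 and 0.58, higher in 3 of 3 sets at each time, but no difference passed (adjusted p = 0.962, 0.401 and 0.829). Against 2MA alone it was higher by 1.55, 1.35 and 0.79 (adjusted p = 0.000343, 0.00102 and 0.0416), comparisons that 4, 3 and 5 of the 6 member probes passed, beside 1.46%, 4.99% and 17.2% of all probes. These 3 calls were lost without set 2 (adjusted p = 0.117, 0.145 and 0.233), the later ones also without set 3 (0.104 and 0.1), and the last without set 1 (0.0832).

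IFNG left Gem between -0.21 and 0.05. With LPS+IFNG it rose at 1 h (1.30 ± 0.19, adjusted p = 3.53e-06) and at 2 h (0.59 ± 0.34, adjusted p = 0.0252, but 0.136 without set 1 and 0.198 without set 2). Set by set it was below LPS alone in 3 of 3 sets at each time, with mean differences of -0.31, -0.29 and -0.16 and no call. On the arrays of LPS+2MA at 1 h that measured the second Gem probe, 3 of 6, it read 1.17, 1.29 and 1.23, the same direction as probe 3402.

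**Figure D3:**
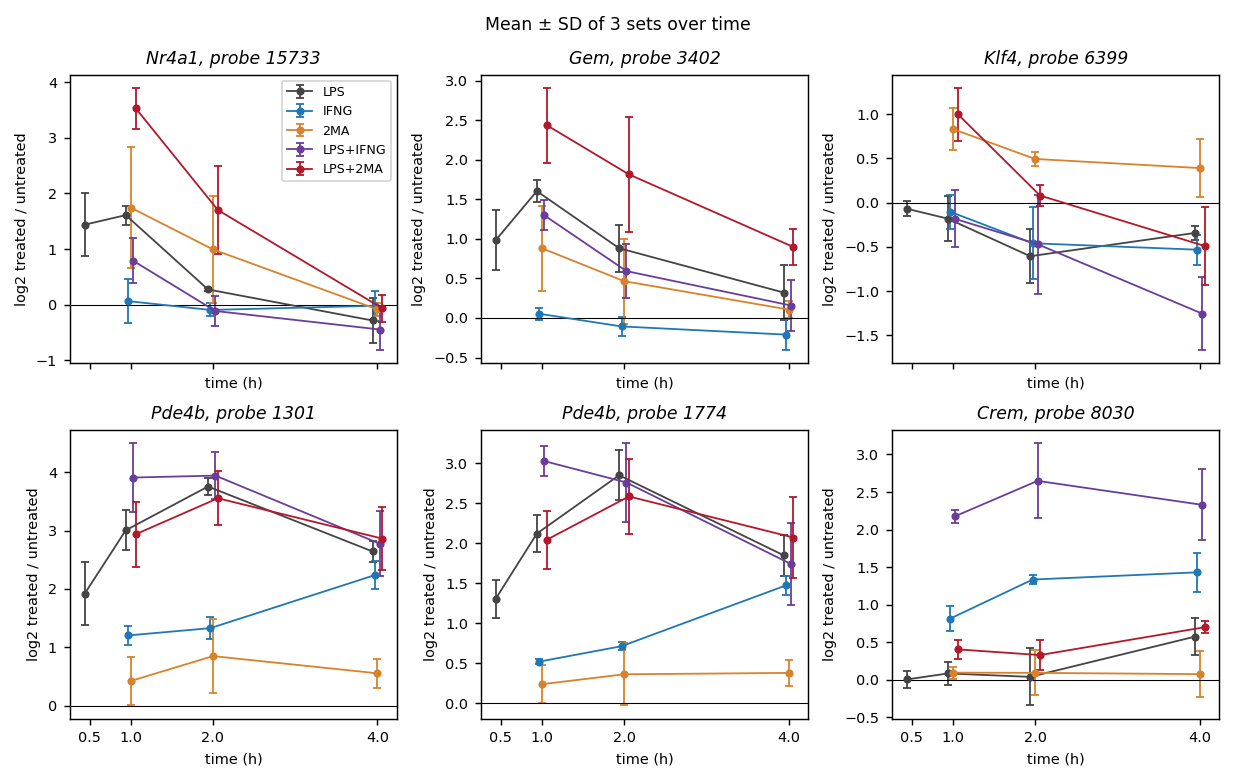
Mean log2 treated-to-untreated ratio (y axis) over time in hours (x axis) for the 6 tested probes, 1 line per treatment, with the SD of 3 sets as whiskers and points shifted slightly sideways. Nr4a1 falls from 3.54 to -0.07 between 1 and 4 h of LPS+2MA, Pde4b with LPS peaks at 2 h, and Crem with LPS+IFNG stays between 2.18 and 2.65.

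The joint response was then set against the sum of the 2 single responses, which on the log2 scale is what multiplying the 2 fold changes would give. For LPS+2MA, 0 of the 6 probes passed at any time in limma. Before adjustment 2 had a p under 0.05, both Pde4b at 2 h (-1.05 and -0.63). Of all probes 0.0219%, 0.0292% and 0.0949% passed at 1, 2 and 4 h. At 1 h, Nr4a1 stood at 3.54 jointly against a sum of 3.36, a difference of 0.18 with a 95% interval of -0.77 to 1.13. Gem stood at 2.44 against 2.49 (-0.05, interval -0.73 to 0.64), and Klf4 differed by 0.35 (-0.23 to 0.93). These intervals are wide, so departures of that width in either direction were not detectable with 3 sets.

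For LPS+IFNG, 4 tests passed, in opposite directions for 2 genes, where 0.102%, 0.343% and 2.66% of all probes passed at 1, 2 and 4 h. Crem exceeded the sum at 1 h (2.18 against 0.90) and at 2 h (2.65 against 1.37). The differences were 1.28 (SE 0.25, adjusted p = 0.0116) and 1.27 (SE 0.25, adjusted p = 0.00506), and 0.32 at 4 h (adjusted p = 0.928). With sets matched by number, those at 1 h and 2 h were above 0 in 3 of 3 sets. By the rule given below, set numbers did not pair the groups of these sums at 1 h and 2 h. At 1 h the call was lost without set 1 (adjusted p = 0.57), set 2 (0.114) or set 3 (0.387), with differences between 1.19 and 1.33. At 2 h, set 1 read 2.17 and the others 0.85 and 0.81, and without set 1 the difference was 0.83 (adjusted p = 0.618). Fitted on the compared groups alone, the adjusted p at 2 h was 0.187.

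Pde4b fell short of the sum at 4 h of LPS+IFNG, by both probes. Probe 1301 stood at 2.77 against 4.88, a difference of -2.11 (SE 0.39, sets -1.79, -2.51 and -2.01, adjusted p = 0.000476). Probe 1774 stood at 1.74 against 3.33, a difference of -1.59 (SE 0.31, sets -1.33, -1.87 and -1.55, adjusted p = 0.000719). At that time LPS alone gave 2.64 and 1.85, and the joint response differed from it by 0.13 (95% interval -0.52 to 0.78) and -0.11 (-0.61 to 0.40). At 2 h both probes were below the sum (-1.14 and -0.81) without passing (adjusted p = 0.405 and 0.542). This held in 3 of 3 sets matched by number, although set numbers did not pair the groups there. At 1 h the probes differed in sign (-0.30 and 0.38).

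**Figure D4:**
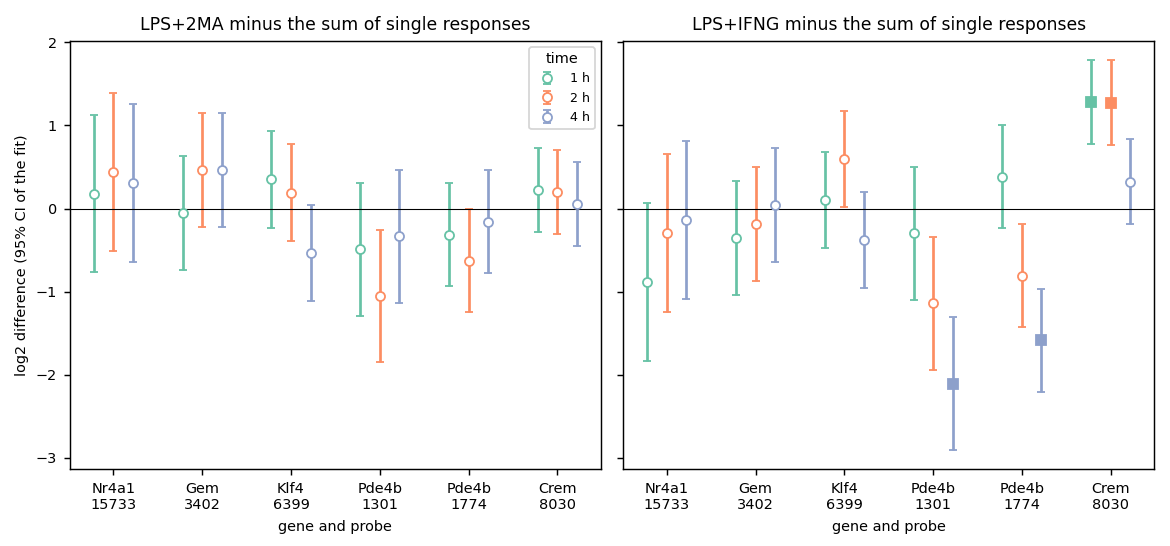
Joint response minus the sum of the single responses (y axis, log2, with the 95% interval of the fit) for each gene and probe (x axis) at 1, 2 and 4 h; filled squares passed an adjusted p of 0.05. On the right, Crem lies above 0 at 1 and 2 h (1.28 and 1.27) and Pde4b below it at 4 h (-2.11 and -1.59), and on the left no point passed.

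Other genes of the pathway were read from 6 lists. Unlike the calls of the members, theirs were not tried with single sets left out. Of 26 CREB and immediate-early target genes, 21 were tested with 31 probes. Counts below stand beside the share of all tested probes called in either direction. With 2MA, 11 of 31 probes rose at 1 h (1.69% of all were called), 6 at 2 h (1.4%) and 0 at 4 h (1.96%), where limma gave 9 an unadjusted p under 0.05 upward. The 1 h median was 0.46, beside -0.0042 for all probes, with Egr2 (4.40 ± 1.07), Egr1 (3.81 ± 0.99) and Egr3 (2.09 ± 0.56), zinc finger immediate-early factors, as the largest. With LPS, 18 of 31 rose at 1 h and none fell (median 0.70; 5.49% of all), led by Dusp1, a MAP kinase phosphatase (4.17 ± 0.46 by probe 10684), and Egr1 (4.14 ± 1.22). With IFNG, 1 rose and 4 fell at 1 h (1.07% of all), among them Rgs2 (-1.16 ± 0.38) and Fos (-0.93 ± 0.53), and 11 rose at 4 h (12.1%). With LPS+2MA at 1 h, 21 rose (5.27% of all), with Egr2 at 5.40 ± 0.96 and Dusp1 at 5.20 ± 0.41. Against LPS alone 0 of the 31 passed in limma at any time, and at 1 h 11 had an unadjusted p under 0.05 upward and 1 downward.

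The lists of the pathway's machinery were next. Of 26 probes of cAMP machinery (17 genes), 1 rose with LPS at 1 h (5.49% of all were called), and at 1 h of 2MA 0 rose and 2 fell (1.69%): Prkacb, a catalytic subunit of protein kinase A (-1.19 ± 1.02), and Adcy7, an adenylyl cyclase (-0.97 ± 0.96 by probe 9141). At 4 h of 2MA the 1 that passed was another Adcy7 probe, 15813, which rose (0.58 ± 0.32, adjusted p = 0.00127; 1.96% of all). At 4 h of LPS 5 of 26 rose and 3 fell, a share near the 28% of all probes called there, with both probes of the adenylyl cyclase Adcy9 down (-0.87 ± 0.22 and -0.78 ± 0.08). Of 7 probes of CREB factors (5 genes), between 0 and 2 passed in any group. The highest count, 2, was at 2 h of LPS+IFNG, where 20.1% of all probes were called. With LPS at 1 h 1 of 7 rose (5.49% of all), Creb1 (0.33 ± 0.09). With 2MA at 1 h 1 fell (1.69%), also Creb1 (-0.39 ± 0.28). At 4 h of IFNG 1 rose (12.1%), Creb3 (0.76 ± 0.10).

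Of 28 probes of calcium and calcineurin machinery (17 genes), 2 rose and 1 fell at 1 h of 2MA (1.69% of all). Both of the risers were probes of Rcan1, an inhibitor of calcineurin (2.39 ± 0.43 and 2.22 ± 0.49), and the one that fell was Ppp3r1, the regulatory subunit of calcineurin (-1.30 ± 1.09). With LPS+2MA the Rcan1 probes stood at 2.81 ± 1.01 and 2.76 ± 1.22 at 1 h and at 3.17 ± 0.57 and 2.89 ± 0.19 at 2 h. At 4 h of LPS+IFNG 2 of 28 rose and 9 fell, not far from the 33% of all probes called there, with Mef2c, a calcium-regulated transcription factor, at -1.82 ± 0.05.

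Among 23 probes of purinergic and Gs-coupled receptors (11 genes), 1 rose at 1 h of 2MA (1.69% of all), the prostaglandin receptor gene Ptger4 (1.19 ± 0.49). With LPS at 4 h 9 of 23 rose and none fell, beside 28% of all probes called there, among them both probes of the ATP-gated channel gene P2rx4 (1.00 ± 0.31 and 0.94 ± 0.26). With IFNG at 1 h (1.07% of all) the 2 that rose were the probes of the adenosine receptor gene Adora3 (1.40 ± 0.24 and 1.35 ± 0.05). Of 10 probes of relatives of Klf4 and Gem (9 genes), 1 rose at 1 h of 2MA (1.69% of all), Klf10 (0.97 ± 0.44). At 4 h of LPS+IFNG, where Klf4 was lowest, 1 of 10 rose and 5 fell, beside 33% of all probes called there. Klf6 stood at 2.37 ± 0.21 and Klf2 at -1.69 ± 0.42. Against LPS alone at 4 h, LPS+IFNG was higher for 3 of 10 probes and lower for 1, beside 4.18% of all. The lower one was Klf2 (-1.07, SE 0.32, adjusted p = 0.043).

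Genes whose 16 group means were most like those of each member were taken by Pearson correlation. This is a description, since both genes of a pair were read on the same arrays, and groups may share untreated RNA. For Nr4a1 these were Tcim (0.906), Egr3 (0.88), Per1 (0.876), Tsc22d2 (0.861) and Egr2 (0.851). Gem was most like 1700109H08Rik (0.905), Tcim (0.897), Gpatch2l (0.872), Plk3 (0.87) and Ifrd1 (0.865). Tcim stood in both sets, and Nr4a1 and Gem correlated with each other at 0.853. Klf4 was most like Rnf113a2 (0.953), Dlg3 (0.912), Adgre5 (0.897), Zfp326 (0.871) and Numb (0.864). Pde4b was most like Pim1 (0.944), Cd83 (0.938), Tnfaip2 (0.937), Cebpb (0.918) and Bcl2l11 (0.905). Crem was most like Cxcl9 (0.959), Kit (0.958), Irf8 (0.954), Gar1 (0.944) and Tnfrsf1a (0.936), with Cxcl9 and Irf8 being well-known IFNG targets. Nr4a1 and Crem correlated at -0.456 and Klf4 and Crem at -0.578. A correlation takes no account of the size of a response. Group means of Rnf113a2 ran only from -0.40 (4 h of LPS+IFNG) to 0.17 (1 h of 2MA), and those of Gpatch2l reached 0.34 (1 h of LPS). Egr2, in contrast, reached 5.40 at 1 h of LPS+2MA.

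**Figure D5:**
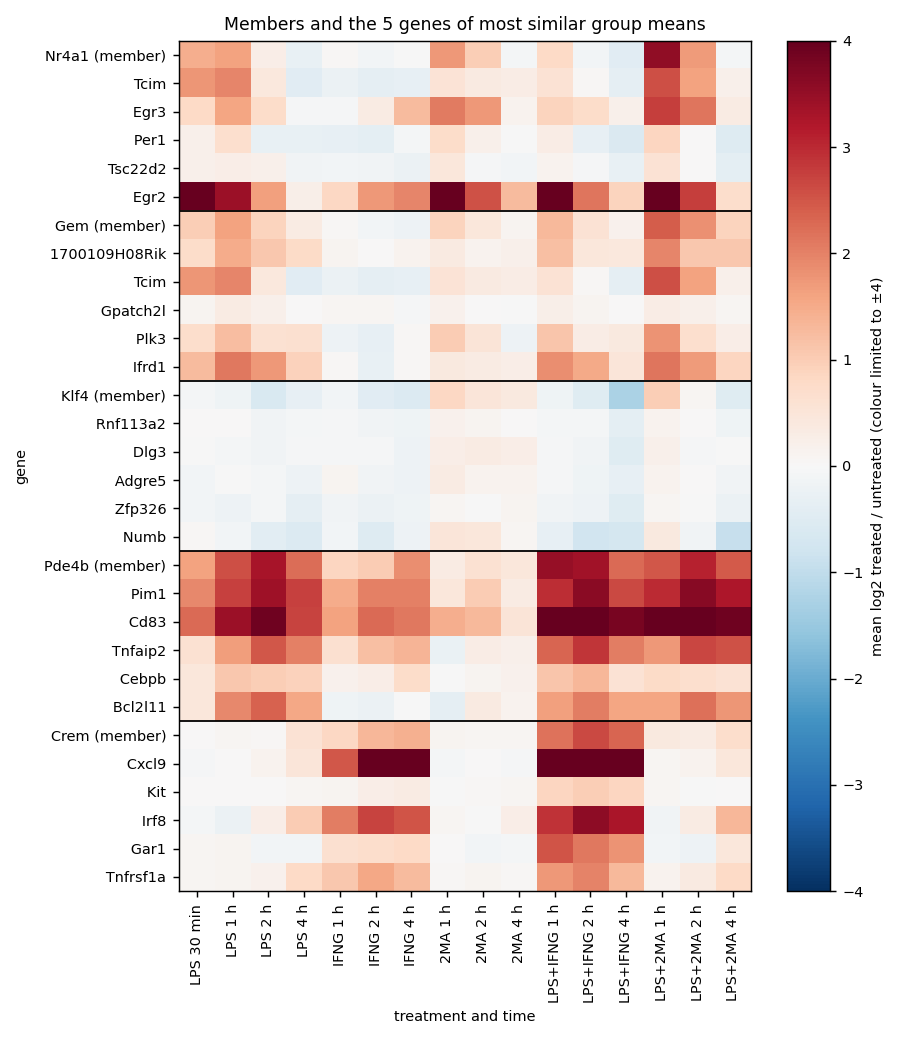
Mean log2 treated-to-untreated ratio (colour, limited to ±4) of each member (probes averaged) and its 5 most similar genes (rows) in the 16 groups (columns). The Nr4a1 block is above 0 at 1 h of LPS, 2MA and LPS+2MA, and the Crem block in the IFNG and LPS+IFNG columns. Some of these means are small on this scale. Examples are Tsc22d2 in the Nr4a1 block (0.25, 0.46 and 0.58) and Kit with IFNG in the Crem block (0.12 to 0.34).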

How the data were processed

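The authors deposited 1 table of log2 ratios of Cy5 to Cy3 for 96 arrays of 16281 probes, with the channel roles per the labels. Image analysis, background correction and normalisation are not given in the sources used here. That the scale is log2 was read from the values, the largest of which, 6.64, is log2 of a round ratio. How arrays were centred is unknown, and their medians of nonzero values ran from -0.018 to 0.044. Gene names came from the platform annotation.

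Values of exactly 0 were read as missing. The sign was turned on arrays that carried treated RNA in Cy3. A set value averages the 2 orientations and needs a value on each. Probes with a value in at least 2 of 3 sets in every group were tested (13698 kept, 2583 left out). limma 3.58.1 in R 4.3.3 fitted 1 mean per group to 48 set values with empirical Bayes moderation (32 residual and 6.29 prior degrees of freedom). Tests were two-sided, with Benjamini-Hochberg adjustment over all tested probes within each of 34 contrasts and 2 F tests, at 0.05. The median standard error was 0.119 for a response, 0.168 for a difference and 0.206 for a difference from a sum. Scripts were tested on simulated data. Plots used matplotlib 3.10.9 in Python 3.11.15.

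The members, the 6 pathway lists, the alternatives and the rule for named genes were chosen with earlier results of these data known. That rule names every member probe, up to 4 list genes with the largest change past the threshold per contrast, the 5 genes most like each member, and the genes of the direction check. Set numbers were taken to pair groups where deviations from group means, matched by number, correlated above 0.1 in every pair. This held for joint treatments and for 2MA against LPS at every time (from 0.122), for LPS+2MA against 2MA at 2 h and 4 h, and for the sums of LPS+2MA at 2 h and 4 h and of LPS+IFNG at 4 h. It did not hold for the other comparisons. No 2 sets were duplicates (highest correlation over probes 0.921).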

Additional observations from a re-analysis of the deposited data

Results flagged for a closer look

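Joint responses that departed from the sum of the single responses were found for 2 members under LPS+IFNG. Pde4b fell short at 4 h, with differences of -2.11 for probe 1301 and -1.59 for probe 1774. Crem exceeded the sum by 1.28 at 1 h and 1.27 at 2 h. Responses that differed between times of 1 ligand were found by F tests over the LPS times for Nr4a1 (F = 11.5), Gem (7.20) and Pde4b (11.3 and 13.3 for its probes), and over the 2MA times for Nr4a1 (11.6). Groups of 3 sets are too small for the test of single outlying sets.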

How the results depend on the processing

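Of 216 tests of member probes, 91 were called, and 60 of these calls held under all 11 alternatives; 0 changed direction. Leaving out 1 set at a time gave between 1 and 5 calls for the 2MA responses (4 with all sets), 0 and 2 for LPS+2MA against LPS, 7 and 12 for LPS+2MA against 2MA, 2 and 3 for LPS+IFNG against its sum (4 with all sets), 2 and 4 for the LPS times, and 0 for the 2MA times. The 1 call over the 2MA times was also lost, leaving 0, with zeros kept as 0 and with the spread of the compared groups alone. With the set number as a replicate block, the calls went from 4 to 6 for the 2MA responses, from 14 to 16 for the LPS+2MA responses and from 2 to 3 for LPS+2MA against LPS. Over all tests the block added 9 calls and removed 0, and pairing changed no call beyond those given in the report. Its other additions were 5 responses of single groups and Crem over the LPS times (adjusted p = 0.0337), where numbers did not pair the groups; the responses not given in the report were Crem at 1 h (0.0317) and 2 h (0.0473) of LPS+2MA. Beside the values in the report, the spread of the compared groups alone ended the calls of Gem for LPS+2MA against 2MA at 2 h (adjusted p = 0.151), of Klf4 at 2 h of LPS+IFNG (0.234), of Pde4b probe 1301 at 2 h of 2MA (0.286) and of Nr4a1 over the 2MA times (0.976). That setting ended 7 calls and added 5, the one not given in the report being Nr4a1 at 4 h of LPS+IFNG (-0.45, adjusted p = 0.0322). All 96 arrays fitted with a dye term and the set as a random block added 4 calls and removed 0. Leaving out a set added 5 calls in all, 4 of them in the report and the other Klf4 over the LPS times without set 3 (0.042). Zeros kept as 0 ended those of Gem for LPS+2MA against 2MA at 4 h (0.0658), of Klf4 at 2 h of LPS+IFNG (0.0554), of Pde4b probe 1301 at 2 h of 2MA (0.0838) and of Nr4a1 over the 2MA times (0.116). The cause of these changes was not tested, but fewer sets also mean fewer degrees of freedom.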
